A study of Saccharomyces cerevisiae x Saccharomyces paradoxus and Saccharomyces cerevisiae and Saccharomyces paradoxus with 40 samples.

Results

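The mRNAs of 6 enzymes of glycolysis and of fermentation to ethanol were followed through sporulation in S. cerevisiae, S. paradoxus and the hybrid between them. The genes were taken by systematic name from a list of 7 and make up 6 of the 3217 genes in the deposited count tables. They are TDH1 (YJL052W), PGK1 (YCR012W), ENO1 (YGR254W), ENO2 (YHR174W), CDC19 (YAL038W) and PDC5 (YLR134W). The seventh, the glucokinase gene GLK1 (YCL040W), was not analysed here. Poly-A RNA was sequenced from 3 libraries of each parent and 4 of the hybrid at each of 4 stages, 40 libraries in 12 groups. T0, the control, is the time at which cells entered sporulation medium, M1 the start of meiosis I, M1M2 the overlap of both divisions and M2 the end of meiosis II. The series design calls the libraries of the parents biological replicates. P-values measure the spread between these libraries, part of which may be technical. All cultures came from YPD with 2% dextrose, grown for 15 h, and were moved to sporulation medium with 1% potassium acetate, 0.1% yeast extract and 0.05% dextrose at 30 °C. Of the 4 hybrid libraries at a stage, 2 came from each direction of the cross. The labels do not say which, so the directions were not compared.

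Glycolysis splits glucose to pyruvate and earns ATP in its later steps, and fermentation then turns pyruvate into ethanol so that NAD can be used again. In budding yeast growing on glucose the mRNAs of these enzymes are among the most abundant. A cell that lives on acetate, as in sporulation medium, has to run the lower part of the pathway backwards to make sugar. Glyceraldehyde-3-phosphate dehydrogenase, phosphoglycerate kinase and enolase work in both directions, whereas pyruvate kinase and pyruvate decarboxylase work only towards ethanol.

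Levels are given as CPM (counts per 1000000), the count of a gene relative to the library's total over all genes after TMM scaling, which evens out composition between libraries. Depth, as counts in genes, lay between 23453 and 7732384. Least deep were S. cerevisiae replicate 2 at M1M2 and at M1, hybrid replicate 3 at M2 and S. paradoxus replicate 2 at M2. In S. cerevisiae M1M2 replicate 2 the level of PDC5 (80.3 CPM) rests on 1 count. There TDH1 (241 CPM) rests on 3 counts and ENO2 (402 CPM) on 5. The stage labels were checked on 7 sporulation genes (IME2, NDT80, HOP1, DMC1, CDA1, GAS4 and SPR3). At M1 5 of them rose in S. cerevisiae, 4 in S. paradoxus and 3 in the hybrid, and all 7 rose in each genotype at M1M2 and at M2. The summed level of 5 haploid-specific markers had group medians between 48.9 and 97.4 CPM at T0, between 57.1 and 241 at M1, between 114 and 431 at M1M2 and between 498 and 1116 at M2. Their part in the results was not tested. In such bulk libraries fewer cells of a kind and less RNA per cell cannot be told apart.

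In the S. cerevisiae reference R64 all 6 genes lie on the plus strand and have no intron. They overlap no other protein-coding gene of the annotation used. Counted features that have no entry in that annotation were not checked for overlap with them. The positions are those of that reference, since the builds behind the counts are not given in the sources used here. TDH1 lies at chrX:338271-339269, PGK1 at chrIII:137746-138996, ENO1 at chrVII:1000927-1002240, ENO2 at chrVIII:451327-452640, CDC19 at chrI:71786-73288 and PDC5 at chrXII:410723-412414. ENO1 and ENO2 are near copies, with 94.8% identical bases over coding sequences of 1314 bases each. Of the 36-base words of ENO1, 33.6% occur unchanged in ENO2. The stretch around the longest run that both share, 112 bases within coding positions 521 to 692, shows how little separates reads of these genes, and its capitals mark the 3 bases that differ.
ENO1 (chrVII:1001447-1001618, plus strand): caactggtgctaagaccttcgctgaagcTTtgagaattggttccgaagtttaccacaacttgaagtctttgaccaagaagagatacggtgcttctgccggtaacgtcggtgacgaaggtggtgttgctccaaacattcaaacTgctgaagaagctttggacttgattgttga
ENO2 (chrVIII:451847-452018, plus strand): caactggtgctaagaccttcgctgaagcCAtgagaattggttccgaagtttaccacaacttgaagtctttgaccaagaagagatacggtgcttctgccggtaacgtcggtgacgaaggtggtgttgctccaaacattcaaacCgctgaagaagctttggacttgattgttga
TDH1 shares 90.2% of its bases with TDH2 and 88.9% with TDH3, and 21.8% of its 36-base words occur in TDH2. PDC5 shares 87.2% with PDC1 and CDC19 67.1% with PYK2, with 2.35% and 0% of 36-base words in common. Values of ENO1, ENO2 and TDH1 are therefore uncertain to the extent that reads fitting both copies were split or dropped, and in the hybrid a read given to neither species' allele is in no value.

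The activators Gcr1 and Rap1 are known for driving glycolytic genes in S. cerevisiae. The 600 bases before each start codon were searched on both strands for CTTCC, the core of the Gcr1 site, and for the Rap1 motif ACCCANNCA. Matches that overlap were each counted. CTTCC occurred in 72.9% of 5999 such windows and ACCCANNCA in 6.97%. PGK1 held 5 copies of CTTCC and 1 Rap1 match, CDC19 3 and 0, ENO2 3 and 0, ENO1 2 and 1, TDH1 2 and 0, and PDC5 none of either. The stress response element AGGGG, searched in the same way, occurred in 39.7% of the windows. It had 2 matches in TDH1, 1 each in PGK1, ENO1, CDC19 and PDC5, and none in ENO2. A match describes letters only. Windows of 300 bases are shown for PGK1 and CDC19, whose mRNAs moved alike, and for TDH1 and PDC5, which followed other courses. Each was chosen to hold the most matches of CTTCC and ACCCANNCA, and among equals lies nearest the start codon. The windows therefore begin at different distances before it, at 588, 312, 429 and 300 bases. Matches of these 2 motifs on either strand are in capitals.
PGK1 upstream (chrIII:137158-137457, plus strand): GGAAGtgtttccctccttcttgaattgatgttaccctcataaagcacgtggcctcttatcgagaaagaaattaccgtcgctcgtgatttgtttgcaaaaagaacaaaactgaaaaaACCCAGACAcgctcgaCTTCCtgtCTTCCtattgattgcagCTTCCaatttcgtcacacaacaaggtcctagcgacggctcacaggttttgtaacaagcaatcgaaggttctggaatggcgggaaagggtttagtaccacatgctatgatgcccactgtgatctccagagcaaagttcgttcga
CDC19 upstream (chrI:71474-71773, plus strand): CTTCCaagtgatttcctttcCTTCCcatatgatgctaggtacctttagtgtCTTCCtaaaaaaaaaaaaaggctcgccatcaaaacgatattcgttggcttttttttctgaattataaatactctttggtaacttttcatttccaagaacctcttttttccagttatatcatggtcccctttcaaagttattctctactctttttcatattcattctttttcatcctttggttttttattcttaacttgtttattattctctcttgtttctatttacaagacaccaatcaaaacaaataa
TDH1 upstream (chrX:337842-338141, plus strand): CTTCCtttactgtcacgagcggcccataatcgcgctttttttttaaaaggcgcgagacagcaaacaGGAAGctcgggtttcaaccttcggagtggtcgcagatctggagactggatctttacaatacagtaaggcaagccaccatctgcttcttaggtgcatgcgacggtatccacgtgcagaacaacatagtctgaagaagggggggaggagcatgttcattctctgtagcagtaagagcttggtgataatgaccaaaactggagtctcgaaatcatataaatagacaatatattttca
PDC5 upstream (chrXII:410423-410722, plus strand): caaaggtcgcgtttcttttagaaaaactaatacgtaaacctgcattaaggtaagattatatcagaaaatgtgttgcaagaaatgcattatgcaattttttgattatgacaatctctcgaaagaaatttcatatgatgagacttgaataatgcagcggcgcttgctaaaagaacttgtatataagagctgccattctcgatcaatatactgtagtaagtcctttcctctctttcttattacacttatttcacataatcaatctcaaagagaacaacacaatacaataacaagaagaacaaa

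Together the 6 mRNAs followed a different course in each genotype. In S. cerevisiae they took a median of 0.118% of gene counts at T0, 1.75% at M1, 0.933% at M1M2 and 0.0766% at M2. In S. paradoxus they started high, at 1.44%, and came to 1.31%, 0.429% and 0.290%. In the hybrid the medians were 0.152%, 0.270%, 0.0512% and 0.0317%, so that no hybrid library reached the lowest library of either parent at M1 or M1M2.

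**Figure D1:**
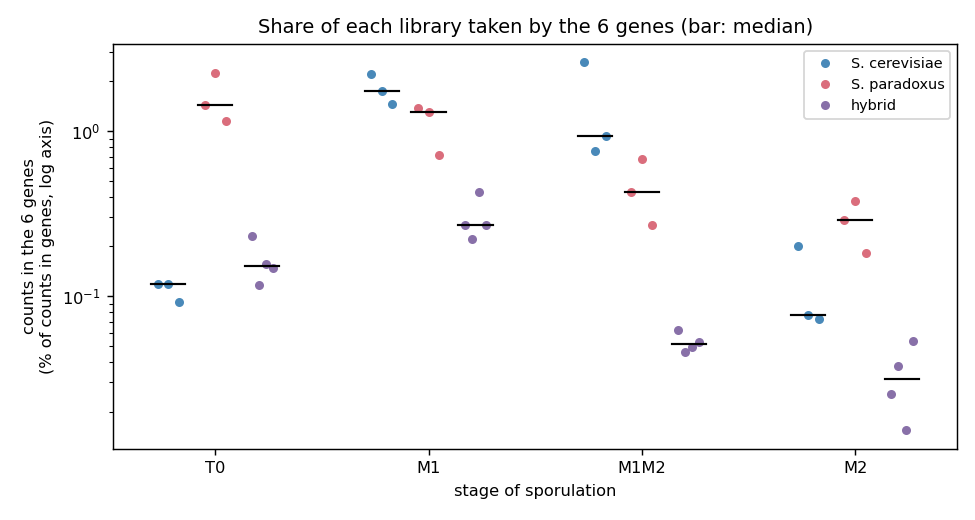
Percent of all gene counts in a library that fell in the 6 genes, on a log axis, by stage. Points are libraries (3 per parent and 4 of the hybrid at each stage) and bars are medians. S. cerevisiae goes from 0.118% at T0 to 1.75% at M1, S. paradoxus falls from 1.44% at T0, and the hybrid stays at or under 0.427%.

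PGK1 encodes phosphoglycerate kinase, the first ATP-making step of the pathway. In S. cerevisiae, PGK1 was at 431, 280.1 and 217 CPM at T0, 9649.8, 14899.8 and 5489 at M1, 7273, 9882 and 2942 at M1M2 and 504, 180.5 and 286 at M2. In S. paradoxus, PGK1 was at 3311, 5933 and 3486 CPM at T0, 3568, 4074 and 1696 at M1, 1544, 2502 and 985 at M1M2 and 1488, 1855 and 716 at M2. In the hybrid, PGK1 was at 432, 200.3, 256 and 281 CPM at T0, 749.7, 678, 1523 and 716 at M1, 258, 14.4, 131 and 189 at M1M2 and 79.7, 147, 65 and 237 at M2. Every S. cerevisiae library of M1 and M1M2 lay above every one of T0 and M2, S. paradoxus libraries of M1M2 and M2 lay below those of T0, and hybrid libraries of M1 lay above those of T0. PGK1 rose in S. cerevisiae by 5.02 ± 0.74 at M1 and by 4.43 ± 0.72 at M1M2 against T0, on the log2 scale (± SE, edgeR's quasi-likelihood test, adjusted p = 1.78e-05 and 2.65e-05). Its value at M2 was 0.06 ± 0.63. In S. paradoxus the differences from T0 were -0.45 ± 0.62, -1.34 ± 0.63 and -1.65 ± 0.64 and none passed (adjusted p = 0.827, 0.216 and 0.0712). In the hybrid PGK1 rose by 1.65 ± 0.56 at M1 (adjusted p = 0.0399) and was at -0.98 ± 0.55 and -1.11 ± 0.55 later. The hybrid call ended without T0 replicate 2, 3 or 4 (1.68, 1.74 and 1.78, adjusted p = 0.0616, 0.0577 and 0.0533) and without M1 replicate 3 (1.29, adjusted p = 0.164).

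ENO1 encodes the enolase isoenzyme that S. cerevisiae is known to keep on non-fermentable carbon sources, where it serves sugar synthesis. In S. cerevisiae, ENO1 was at 443, 365 and 368 CPM at T0, 2364, 2739.6 and 2349 at M1, 4688, 2410.2 and 2135 at M1M2 and 828, 186 and 258 at M2. In S. paradoxus, ENO1 was at 3523, 7804 and 3033 CPM at T0, 1802, 4028 and 1649.6 at M1, 716, 884 and 316 at M1M2 and 492, 531 and 465 at M2. In the hybrid, ENO1 was at 753, 291, 499.8 and 223 CPM at T0, 732, 273, 876 and 527 at M1, 60.2, 148, 38.9 and 23.8 at M1M2 and 40.5, 22.3, 21.7 and 97.8 at M2. S. cerevisiae libraries of M1 and M1M2 lay above all of T0 and M2, whereas S. paradoxus and hybrid libraries of M1M2 and M2 lay below all of their own T0. ENO1 rose in S. cerevisiae by 2.66 ± 0.68 at M1 and 2.98 ± 0.69 at M1M2 (log2, edgeR adjusted p = 0.00722 and 0.00215), with 0.11 ± 0.64 at M2. ENO1 fell in S. paradoxus at M1M2 (-2.91 ± 0.68) and at M2 (-3.27 ± 0.69) (adjusted p = 0.00249 and 0.000419). In the hybrid it fell at the same stages (-2.71 ± 0.59 and -3.22 ± 0.61) (adjusted p = 0.000336 and 4.52e-05). The M1 differences, -0.94 ± 0.64 in S. paradoxus and 0.44 ± 0.55 in the hybrid, did not pass.

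ENO2 encodes the enolase isoenzyme that glucose is known to induce in S. cerevisiae. In S. cerevisiae, ENO2 was at 128, 126 and 62.9 CPM at T0, 3265, 7261 and 3014 at M1, 2718, 402 and 860.2 at M1M2 and 48.8, 323 and 47.6 at M2. In S. paradoxus, ENO2 was at 604, 2207 and 289 CPM at T0, 3627, 1736 and 819.6 at M1, 201, 675 and 132 at M1M2 and 180.3, 144 and 95 at M2. In the hybrid, ENO2 was at 143, 78.9, 4.92 and 299.8 CPM at T0, 47.6, 140.2, 359 and 221 at M1, 18.2, 3.61, 25.4 and 13.8 at M1M2 and 4.05, 15.4, 10.8 and 2.51 at M2. S. cerevisiae M1 stood above its other stages in every library, and the hybrid M1M2 and M2 libraries, on counts from 1 to 141, were all under 26 CPM. Hybrid T0 spanned a wide range, down to 3 counts in replicate 3. ENO2 rose in S. cerevisiae by 5.41 ± 1.01 at M1 and by 3.70 ± 0.93 at M1M2 (log2, edgeR adjusted p = 0.000284 and 0.00471). It fell in S. paradoxus at M2 (-2.88 ± 0.90, adjusted p = 0.0199), after 1.00 ± 0.84 at M1 and -1.62 ± 0.85 at M1M2, which did not pass. In the hybrid it fell at M1M2 (-3.07 ± 0.79) and at M2 (-4.0 ± 0.88) (adjusted p = 0.00265 and 0.000378), although the T0 and later ranges overlapped. The S. cerevisiae M1M2 rise was lost without M1M2 replicate 1 (2.65, adjusted p = 0.0609). The S. paradoxus M2 fall was lost without T0 replicate 2 (-1.67, adjusted p = 0.27), M2 replicate 2 (-2.72, adjusted p = 0.0874) or M2 replicate 3 (-2.67, adjusted p = 0.095).

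The balance of both enolase mRNAs, which have coding sequences of equal length, was set against T0 at each stage. The log2 ratio of ENO2 to ENO1 counts (0.5 added to each) was -1.95 ± 0.53 (SD, n = 3) in S. cerevisiae at T0 and 0.74 ± 0.58 at M1. In S. paradoxus it was -2.59 ± 0.79 and -0.40 ± 1.23. All 3 S. cerevisiae libraries held more ENO2 than ENO1 counts at M1, and so did 1 of 3 of S. paradoxus. The differences of 2.70 and 2.18 had p = 0.1 each in exact two-sided permutation tests, the smallest p that 3 libraries against 3 can give. The hybrid's difference was 0.72 (exact permutation p = 0.714). None of the 9 stage differences passed after adjustment (adjusted p from 0.45 to 0.9).

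CDC19 encodes pyruvate kinase, which makes pyruvate and ATP and is not used in sugar synthesis. In S. cerevisiae, CDC19 was at 431, 266 and 200.1 CPM at T0, 5166, 3493 and 2766 at M1, 6562, 1285 and 2237 at M1M2 and 440.4, 60.2 and 111 at M2. In S. paradoxus, CDC19 was at 3037, 4021 and 1597 CPM at T0, 2666, 2061 and 1717 at M1, 540.5, 872 and 419 at M1M2 and 467, 355 and 368 at M2. In the hybrid, CDC19 was at 522, 253, 308 and 33.7 CPM at T0, 625, 560.4, 1204 and 1037 at M1, 158, 187, 76.3 and 133 at M1M2 and 50.7, 109.9, 97.5 and 17.6 at M2. S. cerevisiae M1 and M1M2 libraries lay above all of T0 and M2, S. paradoxus M1M2 and M2 libraries below all of T0 and M1, and hybrid M1 libraries above all other hybrid libraries. CDC19 rose in S. cerevisiae by 3.67 ± 0.74 at M1 and 3.51 ± 0.74 at M1M2 (log2, edgeR adjusted p = 0.000745 and 0.000817), with -0.55 ± 0.67 at M2. It fell in S. paradoxus at M1M2 (-2.24 ± 0.70) and at M2 (-2.86 ± 0.72) (adjusted p = 0.03 and 0.00304). In the hybrid the M1 difference of 1.61 ± 0.59 did not pass (adjusted p = 0.0623; with DESeq2 1.75 and 0.026), and CDC19 fell at M2 (-2.07 ± 0.62, adjusted p = 0.00939). The S. paradoxus M1M2 fall was lost without any 1 of 5 libraries, which are T0 replicate 1 or 2 and M1M2 replicate 1, 2 or 3 (values from -1.92 to -2.45, adjusted p from 0.0618 to 0.167). The hybrid M2 fall was lost without T0 replicate 1 (-1.54, adjusted p = 0.0728) or M2 replicate 4 (-1.72, adjusted p = 0.0524). With size factors in place of TMM neither fall passed (adjusted p = 0.0553 in S. paradoxus at M1M2 and 0.0555 in the hybrid at M2).

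TDH1 encodes the glyceraldehyde-3-phosphate dehydrogenase isoenzyme that is known in S. cerevisiae from resting and stressed cells. In S. cerevisiae, TDH1 was at 30.2, 164 and 158 CPM at T0, 221, 81.5 and 262 at M1, 569, 241 and 31.6 at M1M2 and 139.8, 111 and 28 at M2. In S. paradoxus, TDH1 was at 2759, 3788 and 4149 CPM at T0, 13.8, 8.47 and 79.2 at M1, 87.2, 30.2 and 95.4 at M1M2 and 38.4, 5.86 and 69.3 at M2. In the hybrid, TDH1 was at 402, 246, 660.4 and 615 CPM at T0, 28.4, 54.7, 31.1 and 17.8 at M1, 25.1, 19.9, 25.4 and 15.9 at M1M2 and 16.2, 7.9, 0 and 118 at M2. The S. paradoxus T0 libraries stood above all others of any group, and hybrid T0 libraries stood above every later hybrid library. S. cerevisiae stages overlapped each other. TDH1 fell in S. paradoxus at M1 (-6.67 ± 1.11), M1M2 (-5.65 ± 1.06) and M2 (-6.54 ± 1.11) (log2, edgeR adjusted p = 4.35e-05, 0.000131 and 1.15e-05). In the hybrid it fell at the same stages (-3.85 ± 0.84, -4.47 ± 0.87 and -3.65 ± 0.84) (adjusted p = 0.000757, 7.03e-05 and 0.000659). These 6 falls kept their side of the threshold in every alternative run. In S. cerevisiae the differences were 0.71 ± 0.87, 1.29 ± 0.90 and -0.33 ± 0.87 (adjusted p = 0.682, 0.411 and 0.837).

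PDC5 encodes the minor pyruvate decarboxylase of S. cerevisiae, which takes pyruvate towards ethanol beside the main enzyme Pdc1. In S. cerevisiae, PDC5 was at 10.1, 83.6 and 30.6 CPM at T0, 42.3, 0 and 0 at M1, 3.64, 80.3 and 88.8 at M1M2 and 180.4, 15 and 29.4 at M2. In S. paradoxus, PDC5 was at 620.1, 563 and 144 CPM at T0, 36, 91.8 and 49.8 at M1, 196, 86 and 142 at M1M2 and 177, 428 and 141 at M2. In the hybrid, PDC5 was at 53.1, 48.8, 50.8 and 251 CPM at T0, 93.4, 56.9, 44.4 and 3.34 at M1, 103, 9.03, 103 and 79.5 at M1M2 and 93.9, 105, 0 and 272 at M2. Libraries of one group differed widely, with 204, 0 and 0 counts at S. cerevisiae M1. No comparison of PDC5 passed the edgeR test. The widest differences were 3.43 ± 1.36 between the species at T0 (S. paradoxus higher, adjusted p = 0.136) and -2.90 ± 1.33 in S. paradoxus at M1 against T0 (adjusted p = 0.286). With DESeq2 the first passed (3.32, adjusted p = 0.0366), and the libraries of both species at T0 did not overlap.

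**Figure D2:**
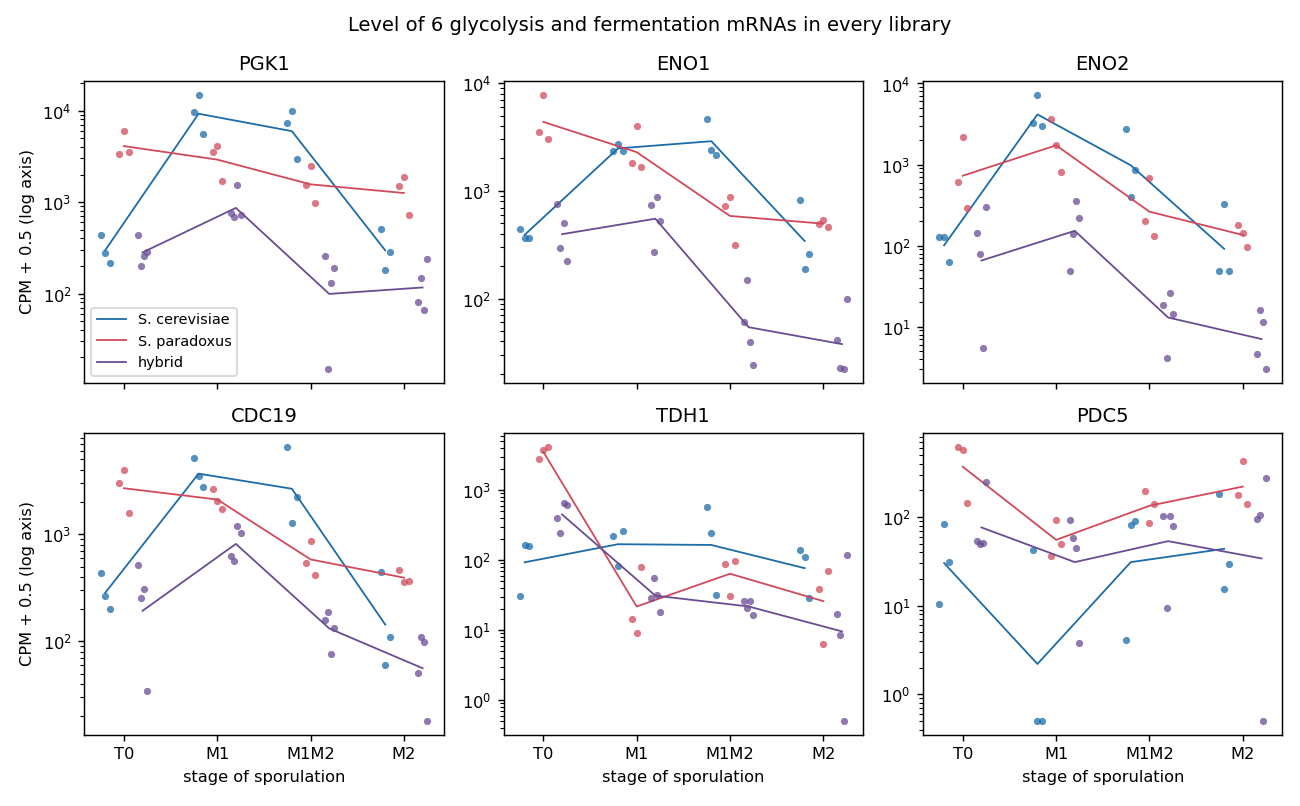
Level of each mRNA (CPM plus 0.5, log axis) in all 40 libraries by stage, with points for libraries and lines through the geometric mean of a group. PGK1, ENO1, ENO2 and CDC19 of S. cerevisiae peak at M1 or M1M2, TDH1 of S. paradoxus stands at 2759 to 4149 CPM at T0 and under 96 CPM later, and PDC5 scatters within groups.

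Of the 6 mRNAs, 4 rose in S. cerevisiae at M1 and the same 4 at M1M2, where 4.07% and 6.98% of the 3094 tested genes rose. The members' median changes were 3.17 and 3.25 beside 0.02 and 0.03 over all genes. At M2 none passed against T0, where 22.8% of genes did, and PGK1, ENO1, ENO2 and CDC19 fell from M1M2 to M2 (-4.36 ± 0.72, -2.87 ± 0.68, -3.29 ± 0.91 and -4.06 ± 0.76, edgeR adjusted p from 9.43e-05 to 0.0117; 4.59% of genes fell). The last fall of ENO2 was lost without M1M2 replicate 1 (-2.25, adjusted p = 0.15), M2 replicate 1 (-2.89, adjusted p = 0.0745) or M2 replicate 3 (-2.89, adjusted p = 0.0892).

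In S. paradoxus no member rose at any stage. One fell at M1 (TDH1), 3 at M1M2 (TDH1, ENO1, CDC19) and 4 at M2 (TDH1, ENO1, ENO2, CDC19), where 1.94%, 5.11% and 8.24% of genes fell. The members' medians were -0.69, -1.94 and -2.87 beside -0.10, -0.17 and -0.33 over all genes. In the hybrid 1 rose and 1 fell at M1, where 12.5% of genes changed in either direction. There 3 members fell at M1M2 and 4 at M2, with 12.4% and 14% of genes falling. From M1 to M1M2 the hybrid levels of PGK1, ENO1, ENO2 and CDC19 fell (-2.62 ± 0.57, -3.16 ± 0.60, -3.64 ± 0.81 and -2.63 ± 0.62, edgeR adjusted p = 0.000879, 9.49e-05, 0.0011 and 0.00221), where 2.94% of genes fell. Comparisons within a genotype share the T0 libraries.

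**Figure D3:**
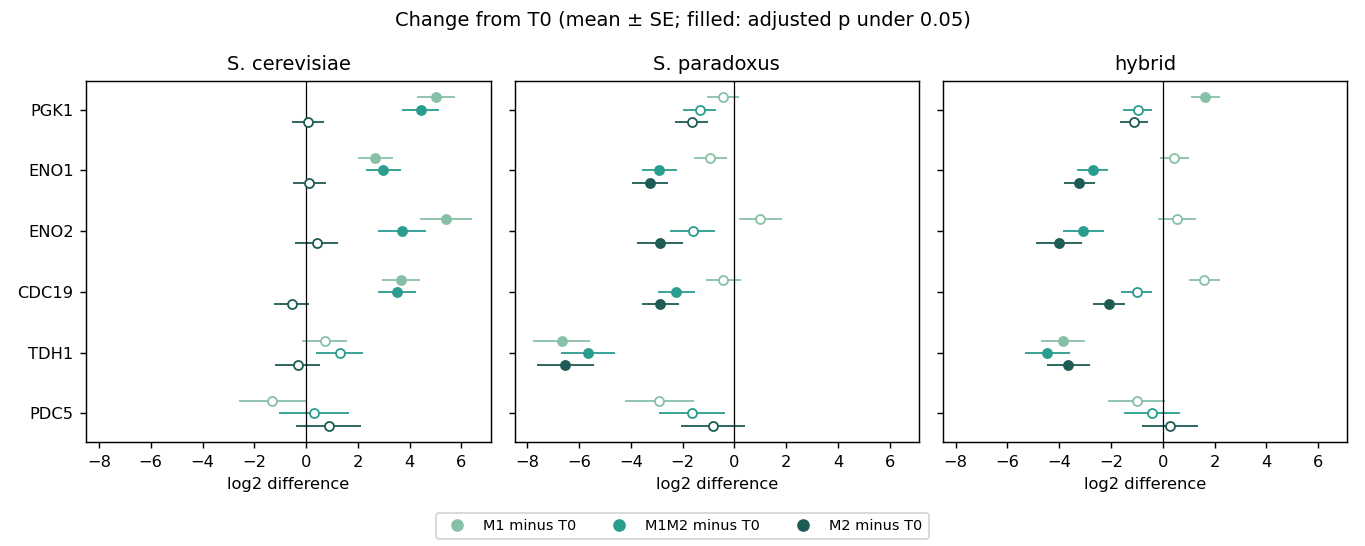
Log2 difference of each later stage from T0 (mean ± SE from edgeR; filled points have an adjusted p under 0.05) for the 6 genes in each genotype. In S. cerevisiae the filled points, between 2.66 and 5.41, are all rises. In S. paradoxus they are all falls, with TDH1 at -5.65 to -6.67, and in the hybrid all are falls but PGK1 at M1.

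Over the 12 group means of log2 CPM, PGK1, ENO1, ENO2 and CDC19 ran together (Pearson's r from 0.928 to 0.960 between pairs), whereas TDH1 had r from 0.432 to 0.619 with them and PDC5 r from -0.237 to 0.224 with the other members. These are descriptions over groups that share libraries and scaling. Among 2857 other genes with a mean count of at least 50, the pattern of YKL153W, which has no entry in the R64 annotation used, came nearest to CDC19 (r = 0.953), ENO2 (0.942) and PGK1 (0.914). YCX1 (YDL206W) was nearest to ENO1 (0.89), followed by EGT2 (YNL327W, 0.867), and second for the other 3 (0.934 for ENO2, 0.908 for CDC19 and 0.865 for PGK1). ZPS1 (YOL154W) with r = 0.874 and YPR160W-A, likewise without one, with 0.909 were nearest to TDH1. JHD1 (YER051W) and PSP2 (YML017W), with 0.844 and 0.837, were nearest to PDC5. By its systematic name YKL153W lies next to GPM1, a glycolysis gene that was not in the counts. Whether the counts of YKL153W hold reads of GPM1 was not tested.

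Per kilobase of coding sequence the members can be set against each other. At S. cerevisiae M1 the median level was 7714 CPM per kilobase for PGK1, 2485 for ENO2, 2324 for CDC19, 1799 for ENO1 and 221 for TDH1. At S. paradoxus T0 the medians were 3792 for TDH1, 2787 for PGK1, 2681 for ENO1, 2021 for CDC19, 459.8 for ENO2 and 333 for PDC5. The ranges of the first 3 overlapped (2762 to 4153, 2647 to 4743 and 2308 to 5939), so these levels have no order beyond their spread. At hybrid M2 no member had a median above 90.7 CPM per kilobase, that of PGK1. By group median CPM, PGK1 was highest in S. cerevisiae M1 and M1M2 and lowest in hybrid M1M2 and M2. For PGK1, ENO1, ENO2 and CDC19 hybrid M2 was the lowest group. Neighbours in that order overlapped in their library ranges, except 2 gaps for PGK1 (S. paradoxus T0 above S. paradoxus M1M2, and hybrid M1 above S. cerevisiae M2). For ENO1 the gaps were S. paradoxus M1 above S. paradoxus M1M2, and S. cerevisiae M2 above hybrid M1M2. ENO2 had the latter gap alone. CDC19 had gaps between S. paradoxus M1 and hybrid M1 and between S. cerevisiae T0 and hybrid M1M2, TDH1 had one between S. paradoxus T0 and hybrid T0, and PDC5 had none.

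At T0 5 of 6 members were higher in S. paradoxus than in S. cerevisiae, where 3.36% of genes were higher. TDH1 differed by 4.93 ± 1.02, PGK1 by 3.78 ± 0.70, ENO1 by 3.61 ± 0.70, ENO2 by 3.29 ± 0.91 and CDC19 by 3.27 ± 0.73 (log2, edgeR adjusted p from 0.00019 to 0.0184). The library ranges did not overlap for any of the 6, with PDC5, which did not pass, among them. How many of all genes separate in this way was not counted, so this is a description only. The median over members was 3.52, beside 0.12 over all genes. At M1 no member passed between the species (2.84% of genes did). At M1M2 CDC19 and ENO1 were lower in S. paradoxus by -2.48 ± 0.71 and -2.28 ± 0.67 (adjusted p = 0.0328 and 0.0365; 2.71% of genes were lower). At M2 no member passed, and 2.13% of genes did. The species' libraries did not overlap for PGK1, CDC19 and TDH1 at M1, for PGK1, ENO1 and CDC19 at M1M2 and for PGK1 at M2. S. paradoxus was the lower at M1 and M1M2 and the higher at M2. These separations too are a description only. The PGK1 differences at M1M2 and M2 were -1.99 ± 0.65 and 2.06 ± 0.65 (edgeR adjusted p = 0.0775 and 0.0733). With DESeq2 both passed (adjusted p = 0.0307 and 0.0167). With size factors in place of TMM both M1M2 calls were lost (adjusted p = 0.0578 for CDC19 and 0.0509 for ENO1).

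Several of these calls were lost on leaving out 1 library. The ENO2 difference at T0 was lost without S. cerevisiae T0 replicate 1, 2 or 3 (3.45, 3.21 and 2.85, adjusted p = 0.0607, 0.0738 and 0.129) or without S. paradoxus T0 replicate 2 (2.08, adjusted p = 0.251). At M1M2 the CDC19 difference was lost without any 1 of 5 libraries and that of ENO1 without any 1 of 8. Without S. cerevisiae M1M2 replicate 1 they were -1.55 (adjusted p = 0.324) and -1.83 (adjusted p = 0.161), and the highest adjusted p for ENO1 was 0.259, without S. paradoxus M1M2 replicate 3.

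The changes themselves differed between the parents. At M1 and at M1M2 5 of 6 members changed from T0 less upwards or more downwards in S. paradoxus than in S. cerevisiae, where 1.55% and 2.42% of genes did. At M1M2 the differences in change were -6.95 ± 1.36 for TDH1, -5.89 ± 0.97 for ENO1, -5.77 ± 0.95 for PGK1, -5.75 ± 1.02 for CDC19 and -5.32 ± 1.26 for ENO2 (edgeR interaction, adjusted p from 9.15e-05 to 0.00876). At M1 they ran from -7.39 ± 1.36 for TDH1 to -3.60 ± 0.92 for ENO1. At M2 ENO1 and TDH1 passed, at -3.38 ± 0.92 and -6.21 ± 1.34 (1.03% of genes were lower). Since the T0 groups enter both the species difference at T0 and these changes, the results are not independent. ENO1 at M2 lost its call without any 1 of 24 of the 40 libraries, with adjusted p up to 0.206 (without S. cerevisiae M2 replicate 1). ENO2 at M1 lost it without any 1 of 18, up to 0.197 (without S. paradoxus T0 replicate 2). At M1 CDC19 lost it without any 1 of 3 libraries and ENO1 of 5, up to 0.0788 and 0.0957 (both without S. cerevisiae T0 replicate 3), and at M1M2 ENO2 of 3, up to 0.067 (without S. paradoxus T0 replicate 2).

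At T0 no member was called different between the hybrid and S. cerevisiae (0.84% of genes were), with differences of -0.08 ± 0.58 for PGK1, -0.09 ± 0.63 for CDC19, 0.17 ± 0.60 for ENO1, 0.30 ± 0.79 for ENO2, 1.28 ± 1.21 for PDC5 and 2.04 ± 0.87 for TDH1. All members but PDC5 were below S. paradoxus, by -3.86 ± 0.62 for PGK1 to -2.89 ± 0.83 for TDH1 (1.23% of genes were lower). For TDH1 the hybrid libraries lay between those of the parents, with 246 to 660 CPM beside 30.2 to 164 and 2759 to 4149. The TDH1 call against S. paradoxus (adjusted p = 0.0479) was lost without any 1 of 15 libraries, with adjusted p up to 0.146. That of ENO2 (adjusted p = 0.0306) was lost without hybrid T0 replicate 1, 2 or 3 or S. paradoxus T0 replicate 2 (adjusted p = 0.0745, 0.093, 0.111 and 0.527).

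At M1 and M1M2 the hybrid levels of the 4 mRNAs that rose in S. cerevisiae were lower than there. Those rises and these differences use the same S. cerevisiae libraries. At M1 4 members were lower in the hybrid than in S. cerevisiae (ENO2 by -4.55 ± 0.86, PGK1 by -3.45 ± 0.61, CDC19 by -2.15 ± 0.63 and ENO1 by -2.04 ± 0.60), where 4.07% of genes were lower. At M1M2 5 were lower, ENO2 by -6.47 ± 0.94, ENO1 by -5.52 ± 0.68, PGK1 by -5.49 ± 0.67, CDC19 by -4.62 ± 0.69 and TDH1 by -3.73 ± 0.88 (edgeR adjusted p from 5.13e-08 to 0.00265; 5.59% of genes). At M2 ENO2 (-4.11 ± 0.91) and ENO1 (-3.16 ± 0.63) were lower, with 0.42% of genes. The TDH1 call at M1M2 was lost without S. cerevisiae M1M2 replicate 1 (-1.90, adjusted p = 0.47). At M1 CDC19 and ENO1 lost theirs without any 1 of 15 and 14 libraries (adjusted p up to 0.137 and 0.129). At M2 ENO2 lost it without S. cerevisiae M2 replicate 2 (-2.57, adjusted p = 0.306) and ENO1 without S. cerevisiae M2 replicate 1 (-2.22, adjusted p = 0.0763).

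Against S. paradoxus 1 member was lower in the hybrid at M1, 3 at M1M2 and 4 at M2, where 1.16%, 0.582% and 0.517% of genes were lower. ENO2 was lower at all 3 stages, by -3.42 ± 0.82, -4.44 ± 0.86 and -4.11 ± 0.91. PGK1 was lower by -3.50 ± 0.61 and -3.32 ± 0.61 and ENO1 by -3.24 ± 0.62 and -3.38 ± 0.64 at M1M2 and M2, and CDC19 by -2.57 ± 0.66 at M2. CDC19 at M2 lost its call without any 1 of 5 libraries, with adjusted p up to 0.165. ENO2 lost it at M1 without hybrid M1 replicate 1 or 2 or S. paradoxus M1 replicate 1 (adjusted p = 0.0789, 0.0518 and 0.172), and at M2 without hybrid M2 replicate 1 or 4 (adjusted p = 0.0588 and 0.0548).

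A hybrid level under both parents was seen for ENO2 at M1, for PGK1, ENO1 and ENO2 at M1M2 and for ENO1 and ENO2 at M2, each past the threshold against both parents. None was seen at T0. Of the tested genes 0.226% were below both parents at T0, 1.13% at M1, 0.485% at M1M2 and 0.226% at M2, and no gene was above both. At M1M2 the hybrid libraries held 3.61 to 25.4 CPM of ENO2, beside 402 to 2718 in S. cerevisiae and 132 to 675 in S. paradoxus. Both comparisons use the same hybrid libraries.

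**Figure D4:**
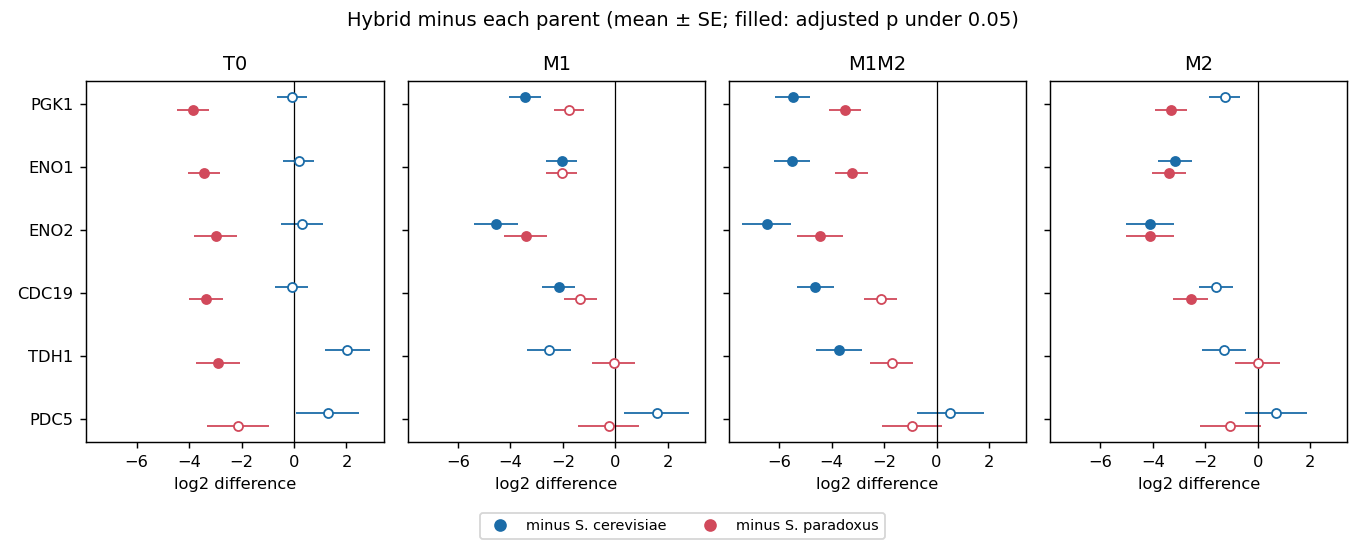
Log2 difference of the hybrid from each parent at each stage (mean ± SE from edgeR; filled points have an adjusted p under 0.05) for the 6 genes. At T0 the differences from S. cerevisiae lie between -0.09 and 2.04 and those from S. paradoxus between -3.86 and -2.15, and at M1M2 the points of PGK1, ENO1 and ENO2 lie between -3.24 and -6.47 against both.

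Reads that fit both species' copies and were given to neither allele are in no value of the hybrid. Neither their number nor their part in the hybrid levels was tested. The hybrid's change from T0 was also set against that of each parent. At M1M2 5 of 6 members changed less upwards in the hybrid than in S. cerevisiae, by -4.53 ± 0.93 for CDC19 to -6.77 ± 1.23 for ENO2 (edgeR adjusted p from 0.000129 to 0.00521), where 1.58% of genes did. At M1 ENO2 alone passed in edgeR (-4.85 ± 1.17, adjusted p = 0.0477, with 0.194% of genes), and without any 1 of 23 of the 40 libraries it did not, with adjusted p up to 0.240. It was also lost with size factors, without the filter, with a replicate block and without the 4 shallowest libraries (adjusted p = 0.0992, 0.0516, 0.105 and 0.104). With DESeq2 PGK1 and TDH1 passed at M1 as well (-3.15 and -4.39, adjusted p = 0.0147 and 0.0155), and TDH1 did so in edgeR without the 4 shallowest libraries (-4.75, adjusted p = 0.0283). TDH1 at M1M2 lost its call without S. cerevisiae M1M2 replicate 1 (-3.94, adjusted p = 0.152). At M2 no member passed, and 0.0323% of genes did. The hybrid's change was not told apart from that of S. paradoxus for any member at any stage, with differences from -1.46 ± 1.12 to 2.89 ± 1.19 (0.388%, 0.226% and 0.42% of genes differed at M1, M1M2 and M2).

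Within the hybrid the counts are also split by allele. No member differed between the S. paradoxus and the S. cerevisiae allele at any stage in edgeR with the library as a block, where 0.133%, 0.868%, 0.834% and 1.53% of 2997 genes did at T0, M1, M1M2 and M2. For the 6 members at 4 stages the estimates ran from -1.73 ± 0.90 (CDC19 at M2) to 3.56 ± 1.66 (TDH1 at M2), so differences of several fold could not be detected. Pooled over libraries, the S. paradoxus allele held 49.6% of ENO1 counts at T0, 57.5% at M1, 82.3% at M1M2 and 72.8% at M2. The T0 value does not show balance. By library it was 52.5%, 49.8%, 38.7% and 16.4% in replicates 1, 2, 3 and 4. Replicate 1, with 1957 of the ENO1 counts, held 65.5% S. paradoxus counts over all genes. Without it the pooled ENO1 share at T0 was 45%. Of the 6 edgeR estimates at T0, 2 were positive and none passed. All 4 libraries had more S. paradoxus than S. cerevisiae counts of ENO1 at M1 (53.8 to 65.6%) and at M1M2 (57.9 to 87.3%). The edgeR estimates there were 0.45 ± 0.82 and 1.52 ± 0.88 (adjusted p = 0.948 and 0.705).

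For CDC19 the pooled S. paradoxus share was 55.1%, 44.8%, 61.7% and 43.3% over the stages, and for PGK1 49.4%, 43.4%, 62.3% and 58.9%. TDH1 had 45.4%, 41.6%, 64.6% and 93.6%, the last on 9 S. cerevisiae and 131 S. paradoxus counts, ENO2 48.4%, 76.1%, 28.8% and 82.7%, and PDC5 74.0%, 82.1%, 73.1% and 45.5%. Several of these shares rest on 1 library, as was seen on leaving out each, a step added after the data were seen. Without M1M2 replicate 1 the ENO2 share at M1M2 was 56.3% (31 S. cerevisiae and 40 S. paradoxus counts), and without replicate 3 it was 16.9%. Without M2 replicate 2 that of ENO2 at M2 was 22.2% (7 and 2 counts) and that of CDC19 at M2 13.3% (85 and 13 counts). The CDC19 share at M2 was 51.1% without replicate 1, and the TDH1 share at M1 was 18.5% without replicate 2. Shares within a few points of 50% also crossed it without 1 library, for ENO1, ENO2 and PGK1 at T0, CDC19 at M1 and PDC5 at M2 (50.4 to 56.3%). Without T0 replicate 1, which held 65.5% S. paradoxus counts over all genes, the T0 shares of several members were lower. They were 36.8% for ENO2, 44.4% for PGK1 and 37.8% for TDH1, whereas CDC19 had 56.6% and PDC5 74.8%. Without T0 replicate 4 the TDH1 share was 49.6%. Pooled T0 shares near 50% therefore do not show balanced alleles. Shares of ENO2 differed between libraries of the same stage by much more than counting error. At M1 its S. paradoxus share was 94.2% (exact 95% interval 84.1 to 98.8) in replicate 1 and 47.0% (43.2 to 50.8) in replicate 2. Such intervals cover counting error only, since the reads carry no molecular identifiers.

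Hybrid T0 replicate 4 stood apart. There the S. cerevisiae allele held 98 counts of ENO2 and the S. paradoxus allele 0, which limits the share to 3.69% (upper exact bound). TDH1 had 200 and 1, PGK1 87 and 5, and ENO1 61 and 12, whereas CDC19 had 5 and 6 and PDC5 2 and 80. Over all genes the same library held 49.5% S. paradoxus counts. Hybrid T0 replicate 1 held 65.5% over all genes, and the other hybrid libraries between 49.5% and 52.0%. In replicate 1 the shares of PGK1, ENO1, ENO2, CDC19 and TDH1 lay between 52.5% and 58.8%, and that of PDC5 was 72.5%.

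**Figure D5:**
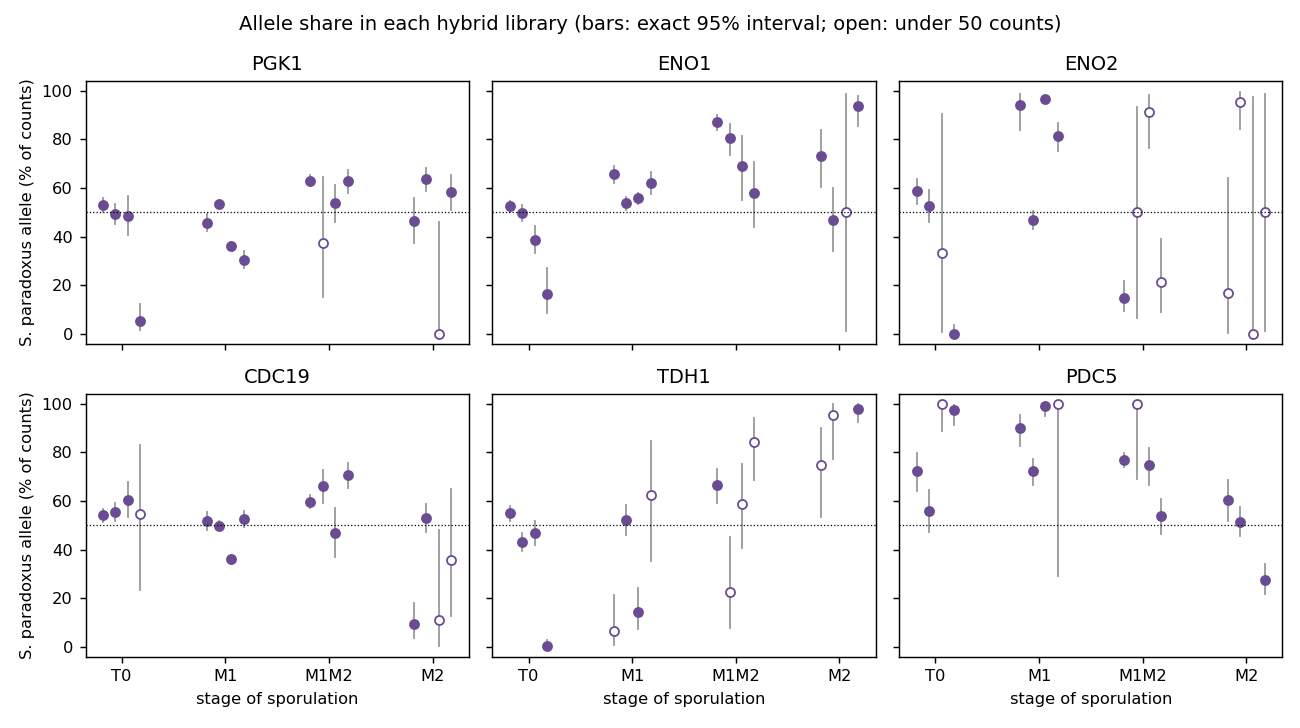
Share of the S. paradoxus allele in the counts of each hybrid library (percent, with exact 95% intervals; open points rest on under 50 counts; libraries without counts are left out) by stage, with a dotted line at 50%. ENO1 lies above 50% in all 4 libraries at M1 and M1M2, and PGK1, ENO2 and TDH1 of T0 replicate 4 lie at 5.43%, 0% and 0.498%.

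The few other genes of the pathway that could be followed did not move as one group. Of 24 further enzymes of glycolysis and fermentation 7 were in the tables (HXK2, GPM2, GPM3, ADH3, ADH4, ADH5 and ERR1). FBA1, TPI1, GPM1, TDH2, TDH3, PDC1 and ADH1 were among those absent, so these 7 do not describe the pathway as a whole. ADH3, the mitochondrial alcohol dehydrogenase, rose in S. cerevisiae by 3.19 ± 0.64, 3.04 ± 0.64 and 2.34 ± 0.62 at M1, M1M2 and M2. Its median there was 229 CPM at T0 and 1972 at M1, and in the hybrid 859 and 661. HXK2, the main hexokinase on glucose, fell in S. cerevisiae at M1M2 (-5.54 ± 1.82) and in the hybrid at M1 (-5.88 ± 1.35). ADH4, another alcohol dehydrogenase, fell in S. paradoxus at M1M2 (-3.81 ± 1.22). In all, 1, 1 and 1 of the 7 rose and 0, 1 and 0 fell in S. cerevisiae at M1, M1M2 and M2, 0, 0 and 0 rose and 0, 1 and 0 fell in S. paradoxus, and 0, 1 and 1 rose and 1, 0 and 0 fell in the hybrid. Over all genes 4.07%, 6.98% and 11.2% rose and 4.78%, 5.43% and 11.6% fell in S. cerevisiae at these stages, 1.42%, 4.23% and 6.88% rose and 1.94%, 5.11% and 8.24% fell in S. paradoxus, and 3.07%, 9.73% and 12% rose and 9.41%, 12.4% and 14% fell in the hybrid. With 7 genes, 1 call a stage is not set apart from these shares. ERR1, an enolase-like gene with near-identical copies in S. cerevisiae, was at 0 in all 12 S. cerevisiae libraries and rose in the hybrid at M1M2 and M2, to a median of 197 CPM. Its S. paradoxus median at M2 was 259 CPM (not past the threshold), and its values are uncertain for the copies.

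Of 9 genes of the acetaldehyde and glycerol branches 6 were present, and those that passed against T0 all fell, 1, 0 and 3 of them in S. cerevisiae, 1, 2 and 3 in S. paradoxus and 2, 3 and 4 in the hybrid at the successive stages, beside the shares of all genes that fell given above (1.94% to 11.6% in the parents and 9.41% to 14% in the hybrid). Between the species at T0, 1 of the 6 was higher and 1 lower in S. paradoxus, where 3.36% and 1.68% of genes were. The one higher was ALD6, the cytosolic acetaldehyde dehydrogenase, by 4.54 ± 0.88. ALD6 fell in S. paradoxus at M1, M1M2 and M2 (-4.24 ± 0.87, -6.77 ± 0.98 and -4.94 ± 0.90). ALD4, its mitochondrial counterpart, fell at M2 in S. cerevisiae (-3.12 ± 0.53), S. paradoxus (-2.66 ± 0.52) and the hybrid (-3.10 ± 0.46). GPP1, a glycerol-phosphate phosphatase, fell in the hybrid at all 3 stages (-1.69 ± 0.58, -1.75 ± 0.58 and -2.52 ± 0.60). Of 10 genes around pyruvate and phosphoenolpyruvate 5 were present. PCK1, which commits cells to sugar synthesis, was lower in S. paradoxus than in S. cerevisiae at T0 by -2.51 ± 0.67, opposite in sign to PGK1, ENO1 and CDC19. PDA1, a subunit of pyruvate dehydrogenase, rose in S. cerevisiae at M1M2 by 1.95 ± 0.55. Against T0, 0, 1 and 0 of these 5 rose and 0, 0 and 1 fell in S. cerevisiae, none rose and 0, 1 and 1 fell in S. paradoxus, and 0, 0 and 1 rose and 0, 1 and 2 fell in the hybrid. Of all genes 12% rose and 14% fell at hybrid M2 and 11.2% rose and 11.6% fell at S. cerevisiae M2, so single calls among 5 genes are not set apart from them.

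Of 8 regulators of glycolytic genes GCR1 and RAP1 were present, and neither passed at any stage. The GCR1 differences from T0 were all positive, from 1.01 ± 1.08 to 3.05 ± 1.15, the latter in S. paradoxus at M2 (edgeR adjusted p = 0.0629). Those of RAP1 ran from -1.20 ± 0.91 to 0.27 ± 0.90.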

How the data were processed

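Per the labels' protocols, poly-A RNA of 40 libraries was read on a HiSeq, and 3 libraries carry 2 indexes. Bowtie 0.12.7 and DESeq 1.8.3 are named in the submitters' processing notes. Which counter, strand setting, annotation and builds were used is not given in the sources used here. The authors deposited raw counts per feature and counts per hybrid allele. Both tables, with the alleles of a hybrid library summed, were equal in 138520 of 138520 values. Of 3463 features, 246 name no gene and were left out (0.392 to 4.95% of a library's counts). Deposited variance-stabilised values were not used.

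The 12 groups were fitted in 1 model with edgeR 4.0.16 (R 4.3.3, limma 3.58.1) by the quasi-likelihood F test on all genes, with TMM scaling and filterByExpr, which kept 3094 genes and all 6 members. P-values were adjusted by the Benjamini-Hochberg method within a contrast, at 0.05. "Rose" and "fell" mean past that threshold. The common biological coefficient of variation was 0.871. Alleles were fitted with the library as a block (2997 genes). The ratio of ENO2 to ENO1 was compared by exact two-sided permutation. Scripts were tested on simulated data. The alternatives were DESeq2 1.42.0, size factors, no filter, a replicate block, leaving out each library, and leaving out the 4 shallowest.

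Members and gene lists were chosen with earlier results of these data known. Named genes are the members, passing genes of each list (at most 6), and the 2 most alike genes per member over 12 groups. Replicate numbers did not pair libraries, with a median correlation of deviations of 0.027 between same-numbered libraries of a genotype.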

Additional observations from a re-analysis of the deposited data

Results flagged for a closer look

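In 11 of 56 groups of 4 hybrid values the highest or lowest library stood apart from the other 3 by Dixon's criterion at the 95% level, which chance alone meets in about 1 group in 20. On the scale of log2 of CPM plus 0.5, PGK1 at M1 was 10.57 in replicate 3 and 9.41 to 9.55 in the others. PDC5 at T0 was 7.97 in replicate 4 beside 5.62 to 5.74, at M1M2 3.25 in replicate 2 beside 6.32 to 6.70, and at M2 -1 (no count) in replicate 3 beside 6.56 to 8.09. The log2 ratio of ENO2 to ENO1 at M1 was -3.93 in replicate 1 beside -1.29 to -0.96.

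Over all genes the S. paradoxus allele held 65.5% in T0 replicate 1 beside 49.5 to 51.8%, and 50.6% in M2 replicate 4 beside 51.8% in the others. The log2 ratio of S. paradoxus to S. cerevisiae allele counts in T0 replicate 4 was -7.62 for ENO2, -3.99 for PGK1 and -7.06 for TDH1, with the other libraries between -0.74 and 0.51. For CDC19 at M1 it was -0.83 in replicate 3 beside -0.0031 to 0.15.

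Among 54 tests of a difference between genotypes in change from T0, 18 passed, all with the first genotype changing less upwards or more downwards. All 18 have S. cerevisiae as the second genotype, and the tests share the T0 libraries. Of all genes 1.55%, 2.42% and 1.03% were lower in change in S. paradoxus than in S. cerevisiae at M1, M1M2 and M2. In the hybrid against S. cerevisiae 0.194% were lower at M1 and 1.58% at M1M2. For S. paradoxus against S. cerevisiae the log2 values at M1 were -4.10 for CDC19, -5.46 for PGK1, -3.60 for ENO1, -4.42 for ENO2 and -7.39 for TDH1. At M1M2 they were -5.75, -5.77, -5.89, -5.32 and -6.95 in the same order, and at M2 -3.38 for ENO1 and -6.21 for TDH1. For the hybrid against S. cerevisiae they were -4.85 for ENO2 at M1, and at M1M2 -4.53 for CDC19, -5.41 for PGK1, -5.69 for ENO1, -6.77 for ENO2 and -5.77 for TDH1.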

How the results depend on the processing

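Of 82 member results past the threshold, 56 kept it in each refit that left out 1 library, and none was reversed under any alternative. Those refits left out each of the 40 libraries for the comparisons of the hybrid with a parent and of changes, but only the libraries of the genotypes, or of the pair of stages, compared for the others (6 to 24). Leaving out 1 library at a time, the count of members called over the tests of a family ran from 7 to 9 for S. cerevisiae stages, 6 to 8 for S. paradoxus, 8 to 10 for the hybrid, 5 to 8 between species, 20 to 26 for the hybrid against its parents, 12 to 20 for differences in change and 0 for alleles. The counts with all libraries were 8, 8, 9, 7, 24, 18 and 0. The count for the enolase ratio was 0 throughout, which in the parents says nothing of stability, since the smallest p their 3 against 3 libraries allow is 0.1. Replicate numbers did not pair the libraries. With a replicate block they were 8, 9, 10, 6, 21, 15 and 0. Of 258 single results, size factors ended 10 calls and added 0, DESeq2 ended 0 and added 11, the block ended 7 and added 2, and no filter ended 2 and added 1. Without the 4 shallowest libraries 5 calls of 216 ended and 4 were added. With the replicate block CDC19 and ENO1 at M1 no longer passed between the hybrid and S. cerevisiae (-1.70 and -1.97, adjusted p = 0.142 and 0.0518), nor ENO2 at T0 between the hybrid and S. paradoxus (-3.00, adjusted p = 0.0589), nor CDC19 at M1M2 between the species (-2.32, adjusted p = 0.051). With it PGK1 fell in S. paradoxus at M2 (-1.73, adjusted p = 0.0415) and CDC19 rose in the hybrid at M1 (1.90, adjusted p = 0.0243). ENO1 at M2 and ENO2 at M1 no longer passed as changes between the species under the block (adjusted p = 0.0547 and 0.0624), nor ENO2 at M1 between the hybrid and S. cerevisiae (adjusted p = 0.105). With size factors the calls lost were CDC19 in the hybrid at M2 (-1.65, adjusted p = 0.0555), in S. paradoxus at M1M2 (-2.13, adjusted p = 0.0553), between the species at M1M2 and between the hybrid and S. paradoxus at M2 (-2.27, adjusted p = 0.073), ENO1 between the species at M1M2, ENO2 and TDH1 between the hybrid and S. paradoxus at T0 (adjusted p = 0.0504 and 0.056), and as differences in change ENO1 at M2 and ENO2 at M1 between the species and ENO2 at M1 between the hybrid and S. cerevisiae (adjusted p = 0.0726, 0.0689 and 0.0992). With DESeq2 the calls added beside those of CDC19 in the hybrid at M1 and PDC5 between the species at T0 were PGK1 between the species at M1M2 and M2 (-1.96 and 2.11, adjusted p = 0.0307 and 0.0167), CDC19 at M1M2 and ENO1 at M1 between the hybrid and S. paradoxus (-2.25 and -2.03, adjusted p = 0.0417 and 0.0216), TDH1 at M1 between the hybrid and S. cerevisiae (-2.48, adjusted p = 0.0316), ENO1 in S. paradoxus from M1 to M1M2 (-1.98, adjusted p = 0.0424), and in change between the hybrid and S. cerevisiae PGK1 and TDH1 at M1 and ENO1 at M2 (-3.15, -4.39 and -3.05, adjusted p = 0.0147, 0.0155 and 0.0311). The change to size factors moved the all-gene median by up to 0.310 (for the hybrid minus S. cerevisiae change at M2). The depth of 23453 counts in the shallowest library, where ENO2 had 5 counts, TDH1 3 and PDC5 1, limits its values.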
